A study of Homo sapiens with 12 samples.

Results

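The comparison described here sets HCT116 cells that had recovered from methionine restriction in the presence of the solvent DMSO against HCT116 cells at 0 h. HCT116 is an established human colorectal carcinoma cell line. By the treatment labels, 8 of the 12 libraries of the study belong to the comparison, 4 at 0 h and 4 after DMSO recovery. The other libraries, from cells given the inhibitor UNC0642, were left out. Recovered cells had been kept for 24 h in RPMI-1640 medium free of methionine, then washed and kept for another 24 h in medium that contained methionine, with serum throughout. The labels give the 0 h cells the same protocol text, and do not say whether they were collected before the restriction or when it ended. Time in culture, the change of medium, DMSO and recovery itself therefore cannot be told apart. A single cell line was used, and the labels do not say that replicates came from separate cultures, so the p-values rest on a spread between libraries that may be technical.

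Methionine is an essential amino acid that serves protein synthesis and is also the precursor of S-adenosylmethionine (SAM), the donor of methyl groups for DNA, RNA, histones and phospholipids. SAM is spent to S-adenosylhomocysteine and homocysteine and rebuilt in the methionine cycle, and part of it is drawn off into polyamines, whose by-product is salvaged back to methionine. Cells short of an amino acid raise ATF4 and its targets, and cells short of sterols process the SREBP factors, which raise the genes of cholesterol and fatty acid synthesis. Dividing cells in culture draw on all of these.

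The deposited expected counts, which are estimates of reads per gene, summed to 14658108 to 18246724 per library at 0 h and to 16181085 to 20179879 after recovery, and the test covered the 12531 of 18969 listed genes with enough counts. Levels are given as CPM, which are counts scaled to a common library size with TMM factors, or as the deposited FPKM, which also divide by gene length, where genes are compared with each other. A gene was called higher or lower at an adjusted p under 0.05 from edgeR's quasi-likelihood test with Benjamini-Hochberg adjustment. The first principal component of log2 CPM, with 45.1% of the variance, held the groups apart. Epithelial markers (EPCAM, CDH1, KRT8 and KRT18) summed to 3944 to 4023 CPM of the library total at 0 h and to 4590 to 4701 after recovery. Of the intestinal markers CDX1 was at 0 in every library, CDH17 and GPA33 were near 0, and CDX2 was present at 12.3 to 16.9 CPM at 0 h. COL1A2, a fibroblast collagen, was above 1 CPM in 3 of the 0 h libraries and 1 DMSO library, and these 4 libraries are set aside below where they matter.

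Between 0 h and recovery, 2833 genes rose (22.6% of those tested) and 2842 fell (22.7%), so that 45.3% of genes were called. In bulk RNA, a lower level in each cell and fewer cells that express a gene cannot be told apart. The biological coefficient of variation was only 3.27%, and most calls were small. Of the called genes 978 differed by less than 1.1-fold and 2315 by 1.1- to 1.2-fold, while 151 differed by more than 2-fold. The large changes were mostly rises: 519 genes rose by over 1.5-fold (4.14%) and 73 fell by over 1.5-fold (0.583%). In 4851 genes (38.7%) the libraries of the groups did not overlap in CPM.

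Falls were frequent among abundant genes and rare among scarce ones. With the genes in 4 classes of equal size by level, 47.3% fell and 17.0% rose in the highest class, and in the lowest 4.56% fell and 23.2% rose. The calls also followed gene length. With 4 such classes by length, 33.3% of genes rose in the class of the longest transcripts and 14.3% fell, and in the class of the shortest 14.1% rose and 32.8% fell. With an offset for gene length 2654 genes rose and 3053 fell. Scaling by library totals alone gave 3834 higher and 1862 lower, so that 67.3% of calls were rises against 49.9% with TMM factors, and limma on log2(FPKM + 1) gave 3609 and 1654 (68.6% rises). Relative to the TMM values the median shift of a gene's log2 fold change under these scalings was 0.055 and 0.056, and the even split of the calls held only with factors that centre the bulk of genes. In the deposited files gene length exceeded effective length by an amount that differed between libraries (the gap), 101 to 106 bases in 3 libraries and 120 to 127 in 5, with 2 libraries at 0 h and 1 after recovery in the short-gap class. Within the long-gap libraries 2256 genes rose and 2379 fell, and within the short-gap libraries 1374 and 1424. Both fits kept all 8 libraries and took the spread from both gap classes. The recovered side of the short-gap contrast is DMSO replicate 1 alone, so a call not made there says little of a gene. Without the 4 libraries with COL1A2 above 1 CPM, which leaves 1 library at 0 h and 3 after recovery, the counts were 1571 and 1729. That fit takes the spread of the lone 0 h library from the rest.

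**Figure D1:**
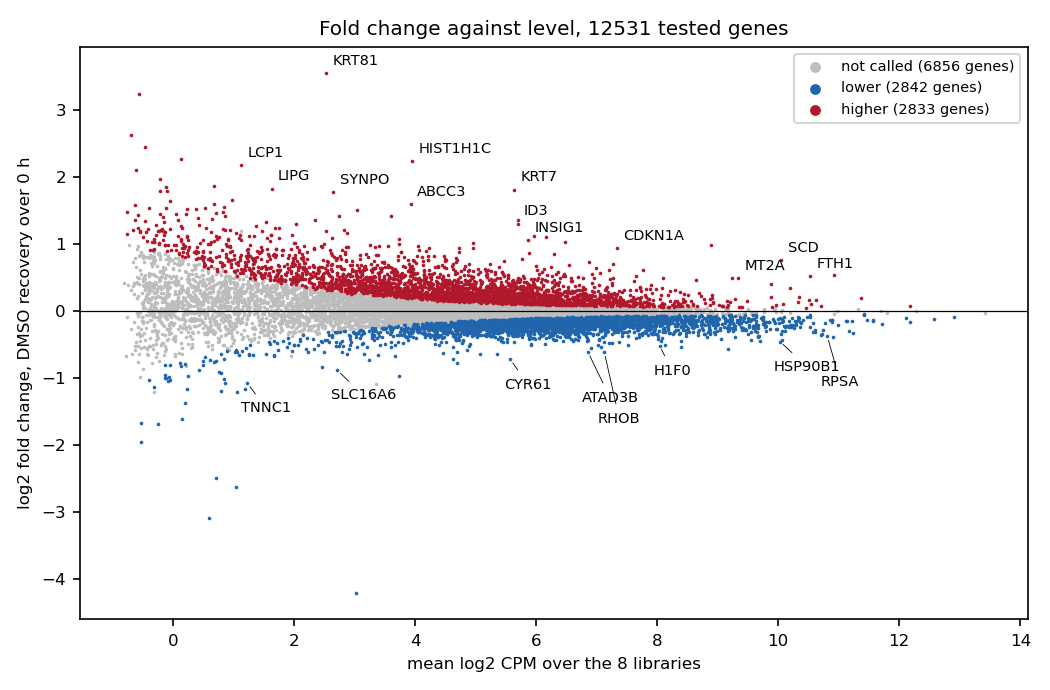
Fitted log2 fold change (DMSO recovery over 0 h, vertical axis) against mean log2 CPM over the 8 libraries (horizontal axis) for the 12531 tested genes, each point a gene, red for the 2833 called higher, blue for the 2842 called lower and grey for the rest. The cloud tilts, with rises among scarce genes and falls among abundant ones, and KRT81 stands highest at a log2 fold change of 3.56.

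Where the mean log2 CPM reached 1 or more and the groups did not overlap, the largest rises were led by KRT81, HIST1H1C, LCP1, LIPG and KRT7. KRT81, a hair keratin, stood at 1.02, 0.893, 0.899 and 0.488 CPM in the 4 libraries at 0 h and at 8.11, 10.4, 11.5 and 9.62 CPM after recovery. Every recovered library was thus several times above every 0 h library, an 11.8-fold rise (log2 fold change 3.56 ± 0.18, SE; edgeR adjusted p = 4.79e-18). HIST1H1C, which encodes a linker histone, was at 4.92, 4.86, 5.53 and 5.43 CPM at 0 h and 25.1, 24.9, 22.4 and 25.4 CPM after recovery, a 4.73-fold rise. The recovered libraries were close together except for DMSO replicate 3, which was the lowest of them and still far above 0 h. KRT7, a keratin of simple epithelia, was at 20.4, 18.9, 22.7 and 24.3 CPM at 0 h and 76.0, 75.4, 76.7 and 74.0 CPM after recovery (3.52-fold, edgeR adjusted p = 3.45e-25). LCP1, an actin-bundling plastin, rose 4.53-fold from 0.959, 0.670, 0.622 and 0.557 to 2.26, 1.87, 5.64 and 3.16 CPM, with a wide spread among the recovered libraries that DMSO replicate 3 led.

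LIPG, endothelial lipase, rose 3.56-fold from 1.25 ± 0.367 to 4.44 ± 0.541 CPM (mean ± SD, n = 4), and ABCC3, an organic anion and drug efflux pump, 3.03-fold from 7.28 ± 0.313 to 22.2 ± 3.30 CPM. COL13A1, a transmembrane collagen, was at 5.51, 6.25, 6.64 and 7.11 CPM at 0 h and 17.3, 18.3, 16.4 and 16.4 CPM after recovery. The complement receptor CR2 was at 3.30, 3.29, 4.22 and 3.07 CPM and then at 9.26, 8.93, 9.15 and 9.76 CPM. They were 2.69- and 2.68-fold higher, with every recovered library above every 0 h library. ID3, an inhibitor of basic helix-loop-helix factors, was already well expressed at 28.2, 29.5, 28.3 and 30.8 CPM and reached 72.5, 74.6, 70.5 and 71.9 CPM (2.48-fold). SYNPO, an actin-binding protein of podocytes and neurons, rose 3.44-fold, MAP2, a neuronal microtubule protein, 2.86-fold, and PRPH, a neuronal intermediate filament, 2.53-fold. The matrix genes TNXB and COL4A3 rose 2.57- and 2.47-fold from 2.69 ± 0.191 and 2.21 ± 0.299 CPM.

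The largest falls under the same limits were smaller. TNNC1, a troponin, was at 2.88, 3.29, 3.04 and 3.20 CPM at 0 h and 1.58, 1.33, 1.67 and 1.31 CPM after recovery, 2.10-fold lower. SLC16A6, a monocarboxylate transporter, fell 1.84-fold, OR51B5, an olfactory receptor gene, 1.77-fold, and OGDHL, a relative of the oxoglutarate dehydrogenase of the citrate cycle, 1.66-fold. SLC2A3, a high-affinity glucose transporter, was at 33.1, 33.2, 31.5 and 33.2 CPM at 0 h and 18.4, 17.6, 19.9 and 20.6 CPM after recovery (1.71-fold lower, edgeR adjusted p = 7.91e-13). The 0 h libraries of SLC2A3 lay within a narrow band, and the recovered ones lay far below it. RHOB, a small GTPase of actin and endosomes, was at 162, 176, 171 and 169.9 CPM and then at 106, 115, 114 and 109 CPM (1.53-fold lower). ATAD3B, a mitochondrial inner membrane protein, was at 145, 133, 141 and 144 CPM and then at 93.5, 91.9, 90.6 and 93.0 CPM (1.52-fold lower). These abundant genes fell by about the same factor with little spread. GMEB1, a transcription factor, fell 1.58-fold, PRR22 1.55-fold and TAGLN, the smooth muscle actin-binding transgelin, 1.53-fold.

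Ranked by the change in deposited mean FPKM, 9 of the 10 largest losses were in ribosomal proteins. TMSB10, an actin-sequestering thymosin, gained most, from 2719 ± 68.7 to 3703 ± 97.2 FPKM (mean ± SD, n = 4). MT2A, a metallothionein that binds zinc, went from 1716 ± 77.5 to 2584 ± 105 FPKM, and in CPM from 545, 536, 523 and 551 at 0 h to 765, 776, 754 and 737 after recovery. FTH1 and FTL, the ferritin chains that store iron, gained 536 and 406 FPKM, and S100A6, a calcium-binding protein, 422. ANXA2, an annexin of the membrane and cytoskeleton, and the simple keratins KRT8, KRT18 and KRT19 gained 130.3 to 289.5 FPKM each. RPL41 was among the gains as well, at 1.12-fold. On the side of the losses, RPL8, RPLP2, RPLP1, RPS21, RPL12, RPSA, RPS3, RPL7 and RPS27 lost 329 to 557 FPKM each. The remaining loss was MTRNR2L2, a gene that resembles mitochondrial ribosomal RNA, at 442 FPKM. Keratin, histone, ferritin and ribosomal protein genes and MTRNR2L2 have near-identical copies among which the counting could divide reads, so their single values are uncertain.

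**Figure D2:**
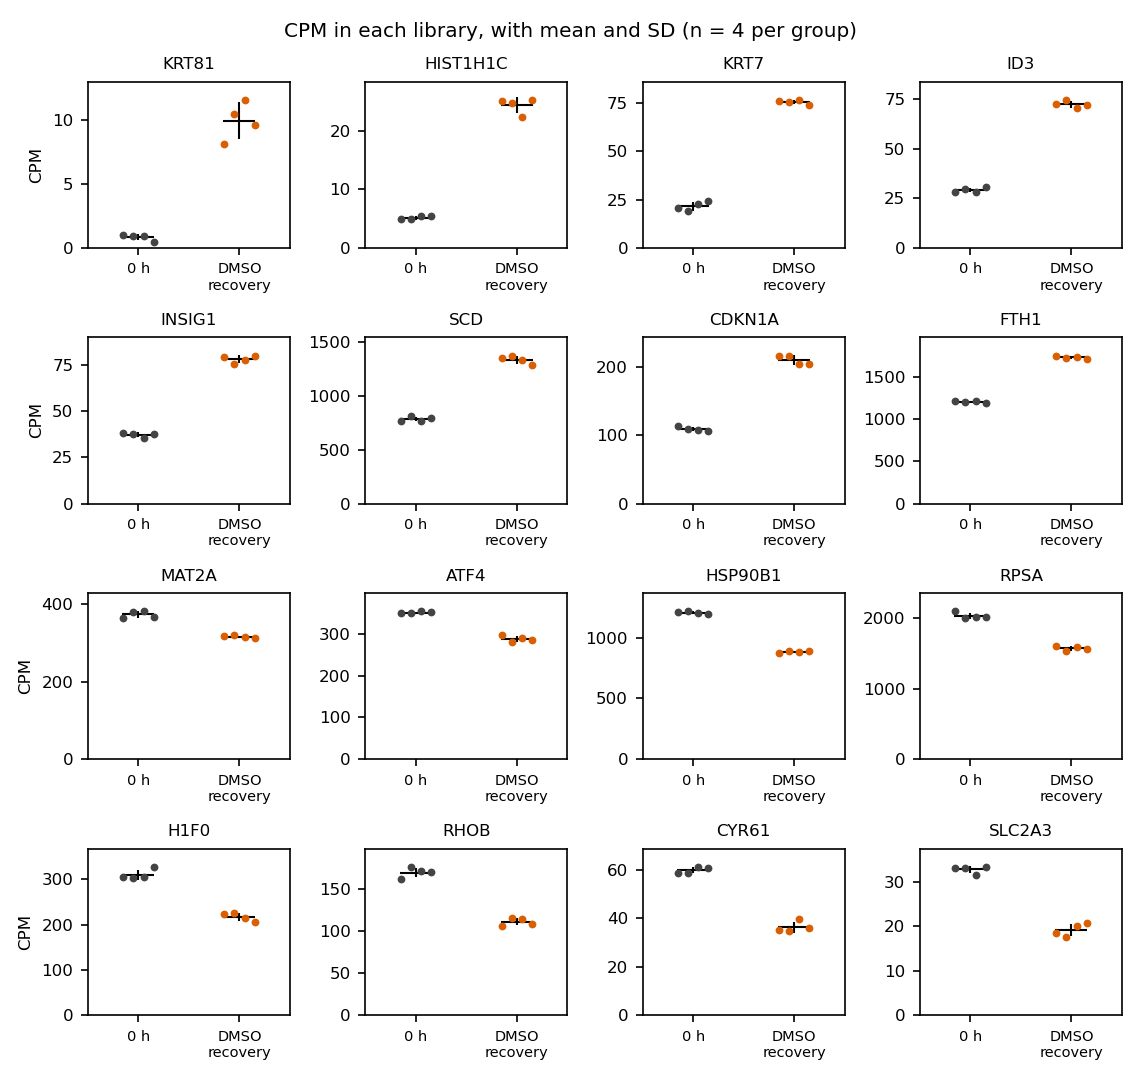
CPM of 16 genes in each library (vertical axes, CPM from 0), with the 4 libraries at 0 h in grey and the 4 after DMSO recovery in orange, and the mean with its SD as a line and bar. In each panel the groups are separate, as for KRT7 with 18.9 to 24.3 CPM at 0 h and 74.0 to 76.7 CPM after recovery.

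Genes of sterol synthesis were mostly higher. Of the 11 genes from acetyl-CoA to squalene 9 rose and 1 fell, with a median log2 fold change of 0.22, where the median of all genes tested was 0.004. HMGCS1, which makes HMG-CoA, was at 93.3, 82.7, 90.5 and 81.4 CPM at 0 h and 148, 144, 139 and 149 CPM after recovery (1.67-fold, edgeR adjusted p = 5.70e-18). ACAT2, which joins acetyl-CoA units, rose 1.14-fold. Of the steps that turn mevalonate into isoprenoid diphosphates, the kinase MVK rose 1.38-fold, the decarboxylase MVD 1.5-fold, the isomerase IDI1 1.47-fold, and the prenyl synthases FDPS and GGPS1 1.16- and 1.17-fold. PMVK, the kinase between MVK and MVD, went against them and fell 1.16-fold (edgeR adjusted p = 0.00537). Within the long-gap libraries PMVK and ACAT2 were not called, and IDI2 was not called in any fit. FDFT1, squalene synthase, was at 93.5, 97.2, 103 and 103 CPM at 0 h and 161, 147, 155 and 156 CPM after recovery (1.56-fold).

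After squalene, 10 of 12 genes rose and none fell, with a median log2 fold change of 0.32. TM7SF2, a sterol reductase, rose most (1.80-fold, from 7.08 ± 0.586 to 12.7 ± 0.641 CPM), while LBR, which carries the same reductase activity and is also a lamin receptor, rose 1.1-fold. DHCR7, which makes cholesterol from 7-dehydrocholesterol, rose 1.48-fold, the demethylation gene SC4MOL 1.45-fold, HSD17B7 1.45-fold, the cyclase LSS 1.41-fold and SC5DL 1.30-fold. SQLE, the oxygenase that limits this branch, and CYP51A1, the lanosterol demethylase, rose by 1.13- and 1.13-fold only. NSDHL and EBP, which act after CYP51A1, were not called at log2 fold changes of -0.015 and -0.034 with SEs of 0.058 and 0.041. The rises along the sterol steps thus ranged from 1.1- to 1.80-fold.

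The sensors of the pathway did not move as a set. INSIG1, which holds SREBP in the endoplasmic reticulum and is itself a SREBP target, was at 38.2, 37.6, 35.6 and 37.5 CPM at 0 h and 79.4, 75.1, 77.4 and 79.8 CPM after recovery (2.09-fold, edgeR adjusted p = 5.88e-21). INSIG2, its relative, had a log2 fold change of 0.030 ± 0.088 (SE). SCAP, the SREBP escort, had 0.0075 ± 0.037, and the proteases MBTPS1 and MBTPS2 that cleave SREBP had -0.072 ± 0.031 and -0.086 ± 0.063. None of these 4 was called. Of the factors themselves SREBF2 was at 125, 129.8, 123 and 135 CPM at 0 h and 185, 179, 179 and 180.1 CPM after recovery (1.41-fold), and SREBF1 rose 1.16-fold. The sterol carrier STARD4 rose 1.54-fold, MYLIP, which marks LDL receptors for degradation, 1.28-fold (not called without DMSO replicate 1, edgeR adjusted p = 0.0527), and NPC1, which lets cholesterol out of lysosomes, 1.19-fold, whereas its partner NPC2 fell 1.16-fold and TMEM97 was not called. In all 8 of the 14 genes in the list rose and 1 fell. Of 6 LXR receptors and sterol efflux genes 3 rose, ABCA1, the cholesterol exporter, by 2.34-fold (from 0.442 ± 0.144 to 1.06 ± 0.507 CPM), the phospholipid-remodelling LPCAT3 by 1.33-fold and NR1H2 by 1.15-fold. ABCA1 was not called without DMSO replicate 2, edgeR adjusted p = 0.0895, and it was also not called within the short-gap libraries, without the libraries with COL1A2 or on log2(FPKM + 1). ABCG1, APOE and NR1H3 were not called either.

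A sterol regulatory element spelled TCACNCCAC was looked for on both strands of the RefSeq promoter windows (build GRCh38.p14, 250 bases before to 50 after each start), which 10274 of the tested genes (82.0%) matched in 10191 distinct windows. It occurred in 1.03% of all windows, in none of 8 for genes up to squalene, none of 10 after squalene, none of 21 for fatty acid genes and 1 of 12 for SREBP control and uptake. That window belongs to SREBF2, which rose, and its stretch is shown with the element in capitals, on the plus strand at chr22:41832952-41833000.
SREBF2: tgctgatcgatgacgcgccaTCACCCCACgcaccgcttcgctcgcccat
A match is a description of these letters, and a window without one says only that these letters are not in it.

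Genes of fatty acid synthesis were mostly higher as well. Of 24 genes 19 rose and 3 fell, with a median log2 fold change of 0.27. SCD, the desaturase that makes oleate, was at 769, 811, 765 and 795 CPM at 0 h and 1348, 1372, 1331 and 1289 CPM after recovery (1.70-fold, edgeR adjusted p = 1.46e-25). FASN, the fatty acid synthase, was at 1495, 1569.7, 1683 and 1570.1 CPM and then at 2231, 2346, 2333 and 2264 CPM (1.45-fold). FADS2, the first desaturase of polyunsaturated fatty acids, was at 12.9, 12.1, 13.5 and 12.8 CPM and then at 24.6, 20.0, 20.0 and 21.2 CPM (1.68-fold), with DMSO replicate 1 the highest. These 3 genes separated the groups without overlap, and FADS1 rose 1.46-fold beside them. In the supply of acetyl-CoA and malonyl-CoA, ACSS2, which uses acetate, rose 1.52-fold, the citrate lyase ACLY 1.15-fold, the carboxylases ACACA and ACACB 1.2- and 1.36-fold and the malic enzyme ME1 1.14-fold. Of the elongases ELOVL5, ELOVL7 and ELOVL6 rose 1.41-, 1.42- and 1.2-fold, while ELOVL1, which makes very long saturated chains, fell 1.12-fold. LPIN1, a phosphatidate phosphatase, rose 1.42-fold and the acyl-CoA synthetases ACSL1, ACSL3 and ACSL4 1.17- to 1.23-fold. ACSL5 and GPAM, which adds the first acyl chain to glycerol phosphate, fell 1.08- and 1.12-fold, and AGPAT2 and DGAT2 were not called. ACSL5 was not called without 0 h replicate 2, edgeR adjusted p = 0.0732.

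**Figure D3:**
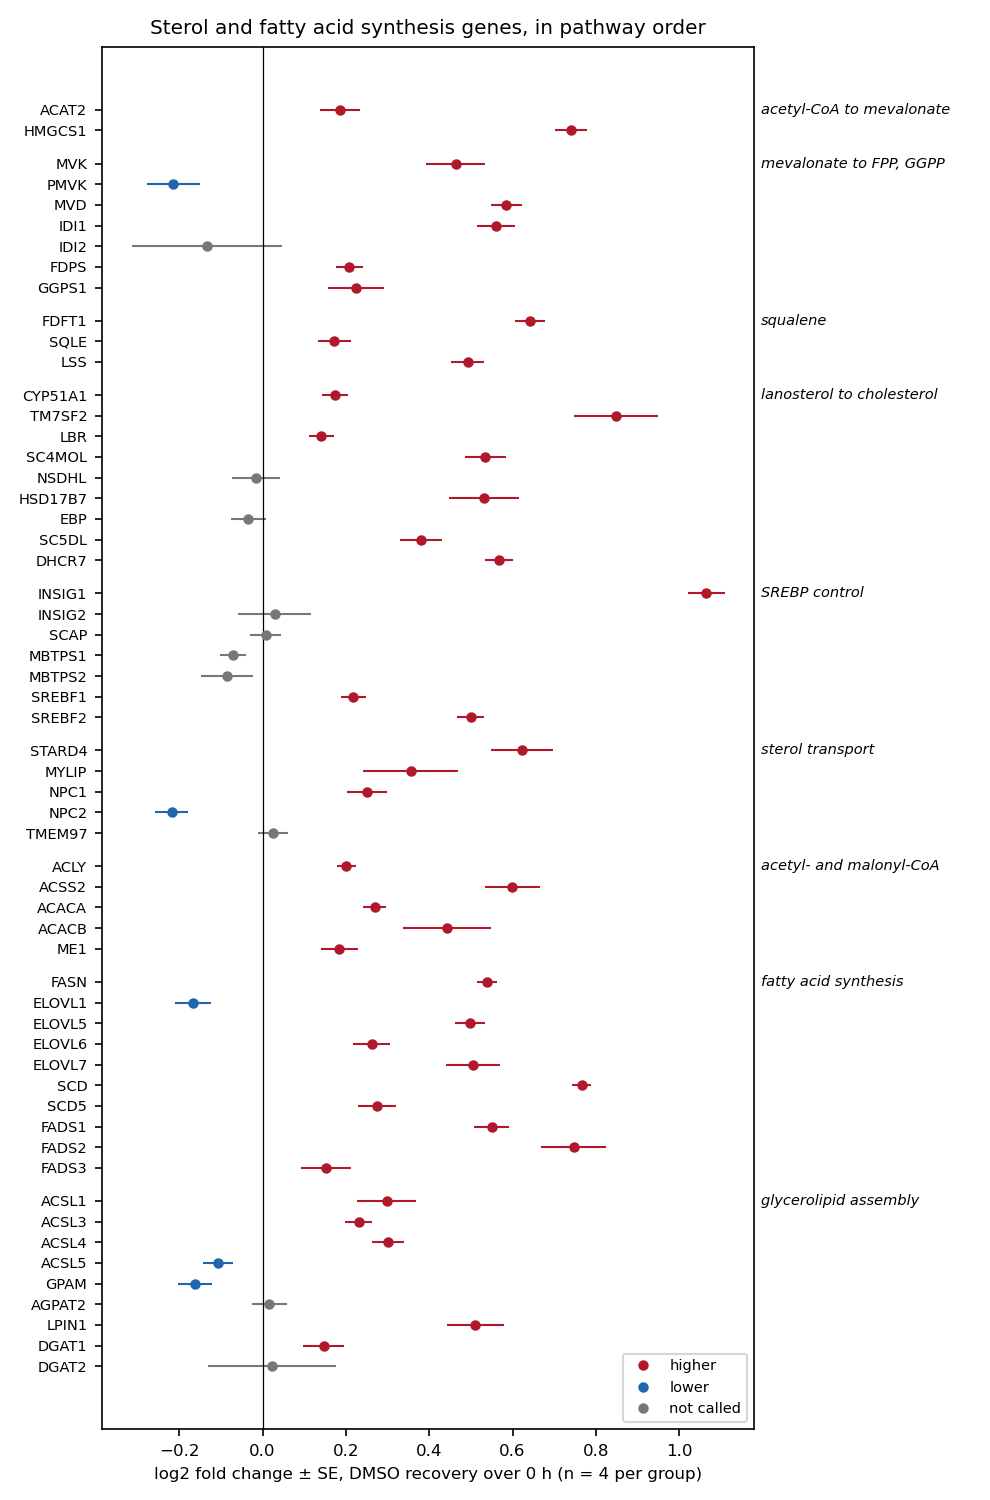
Log2 fold change with its SE (horizontal axis, DMSO recovery over 0 h, n = 4 per group) for genes of sterol synthesis, SREBP control, sterol transport and fatty acid synthesis in pathway order, red for called higher, blue for called lower and grey for not called. INSIG1 lies furthest right at 1.06 and the blue points are PMVK, NPC2, ELOVL1, ACSL5 and GPAM, from -0.22 for NPC2 to -0.11 for ACSL5.

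Genes that break down or burn lipid moved less evenly. Of 14 lipase and lipid droplet genes 6 rose and 1 fell, where 22.6% of all genes rose and 22.7% fell. Beside LIPG, MGLL, which cleaves monoglycerides, was at 12.6, 10.3, 11.1 and 11.9 CPM at 0 h and 20.8, 17.6, 21 and 21.5 CPM after recovery (1.77-fold). PDK4, which turns pyruvate away from oxidation, rose 2.53-fold, ANGPTL4, a lipase inhibitor, 1.81-fold, the lysosomal lipase LIPA 1.25-fold and CPT1A, the gate of fatty acids into mitochondria, 1.15-fold. Over the alternative fits the log2 fold change of PDK4 ranged from 0.23 to 1.58 and that of ANGPTL4 from 0.58 to 1.05. PLIN3 fell 1.09-fold, and the droplet coat gene PLIN2 and the triglyceride lipase PNPLA2 were not called, with log2 fold changes of -0.030 ± 0.062 and -0.0048 ± 0.038 (SE).

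In the methionine cycle 4 of 12 tested genes were higher and 2 lower, close to the shares of 22.6% and 22.7% among all genes, with a median log2 fold change of 0.023. MAT2A, which makes SAM in most tissues and whose transcript is known to rise when SAM is short, was at 364, 379.7, 380.4 and 366 CPM at 0 h and 316, 319, 315 and 312 CPM after recovery. All recovered libraries were lower, by 1.18-fold (log2 fold change -0.24 ± 0.025, SE; edgeR adjusted p = 5.70e-10), and MAT2B, its regulatory partner, was not called. MAT1A, the liver enzyme for the same step, rose from a trace, 0.360, 0.223, 0.553 and 0.488 CPM at 0 h, to 1.32, 1.33, 0.948 and 1.07 CPM. Its groups did not overlap (2.90-fold), but it was not called within the short-gap libraries or without the libraries with COL1A2. Per length its mean remained far under that of MAT2A, at 0.357 ± 0.0574 FPKM against 119 ± 1.53 FPKM after recovery. AHCY, which splits S-adenosylhomocysteine, was at 409, 406, 386 and 388 CPM at 0 h and 325, 325, 337 and 326 CPM after recovery (1.21-fold lower). Its relatives AHCYL1 and AHCYL2 rose 1.2- and 1.26-fold. The remethylation genes MTR and MTRR were not called. GAMT, which spends SAM on creatine, rose 1.19-fold and C7orf60, the SAM sensor also named BMT2, had a log2 fold change of -0.24 ± 0.13 without a call.

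Of 16 genes for polyamines and methionine salvage 3 rose and 5 fell, a balance that turned to 5 and 4 when libraries were scaled by totals alone or on log2(FPKM + 1). ODC1, which starts polyamine synthesis, was at 930.4, 925, 933 and 898 CPM at 0 h and 707, 680.2, 727 and 711 CPM after recovery (1.30-fold lower, edgeR adjusted p = 1.63e-16). ADI1, the last dioxygenase step of salvage before methionine, was at 82.8, 90.8, 89.8 and 88.1 CPM and then at 67.8, 67.8, 71.5 and 67.0 CPM (1.28-fold lower). In both genes no recovered library reached the 0 h range. Spermidine synthase SRM fell 1.11-fold, the antizyme OAZ1 1.13-fold and the salvage dehydratase APIP 1.11-fold (not called without 0 h replicate 1, 3 or 4 or DMSO replicate 2, 3 or 4, edgeR adjusted p = 0.0583 to 0.149). AMD1, which decarboxylates SAM, and SMS were not called. MTAP, which opens the salvage route, and MRI1, the step after it, rose 1.08- and 1.16-fold, and AZIN1, which shields ODC from antizyme, 1.12-fold.

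Genes of serine and folate metabolism, which supply the methyl group for homocysteine, were mostly lower. Of 14 genes 8 fell and 1 rose. MTHFD2 fell 1.17-fold, PSAT1 1.15-fold, SHMT2 1.14-fold, the folate carrier SLC19A1 1.14-fold and PHGDH, which commits glycolytic carbon to serine, 1.12-fold. In transsulfuration and glutathione 4 of 12 fell and 2 rose, where 22.7% and 22.6% of all genes did. SLC7A11, the cystine carrier, fell 1.26-fold and CTH, which makes cysteine from cystathionine, rose 1.27-fold (not called without 0 h replicate 2, edgeR adjusted p = 0.0503). CHAC1, which degrades glutathione, was at 3.42, 4.86, 3.67 and 3.27 CPM at 0 h and 2.26, 3.50, 2.06 and 1.99 CPM after recovery, where DMSO replicate 2 overlapped the 0 h range. Its 1.57-fold fall (edgeR adjusted p = 0.00520) was not called without 0 h replicate 2, edgeR adjusted p = 0.0510.

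Genes of the amino acid response moved both ways. ATF4, its main transcription factor, was at 348, 349, 353 and 351 CPM at 0 h and 297, 279, 289 and 284 CPM after recovery (1.22-fold lower, edgeR adjusted p = 1.75e-11). ATF5, DDIT3 and ATF3, which act with or after it, fell 1.25-, 1.26- and 1.15-fold, and so did PPP1R15A, the phosphatase subunit of its feedback, by 1.28-fold, and the proline synthesis genes PYCR1 and ALDH18A1 by 1.23- and 1.12-fold. ASNS, asparagine synthetase and a classical ATF4 target, was at 72.4, 75.8, 69.7 and 70.2 CPM and then at 75.6, 73.0, 79.3 and 78.2 CPM. These values overlap, and ASNS was not called (log2 fold change 0.086 ± 0.041, SE; edgeR adjusted p = 0.0838). TRIB3 was not called either. DDIT4, an inhibitor of mTORC1, was at 21.2, 23.9, 22.5 and 26.7 CPM at 0 h and 33.6, 31.7, 32.8 and 32.1 CPM after recovery (1.38-fold higher), and SESN2, which relays leucine to mTORC1, rose 1.14-fold. JDP2 (not called without 0 h replicate 4 or DMSO replicate 1, edgeR adjusted p = 0.110 and 0.158) and EIF4EBP1 (not called without 0 h replicate 3 or 4 or DMSO replicate 1 or 3, edgeR adjusted p = 0.0801 to 0.0979) were the other rises. DDIT3 was not called without 0 h replicate 1 or 3 or DMSO replicate 4 (edgeR adjusted p = 0.0548 to 0.0941). ATF3 was not called without 0 h replicate 1 or 3 or DMSO replicate 3 or 4 (edgeR adjusted p = 0.0642 to 0.0909). SESN2 was not called without 0 h replicate 2 or 4 or DMSO replicate 2, 3 or 4 (edgeR adjusted p = 0.0521 to 0.143). With all 8 libraries SESN2 was also not called without the filter or with DESeq2, the length offset, gap class or a block for replicate number. EIF4EBP1 was also not called with gap class or DESeq2. DDIT3 and ATF3 were also not called with totals alone or on log2(FPKM + 1), nor DDIT3 with the length offset. Over the list 4 of 18 genes rose and 7 fell, beside shares of 22.6% and 22.7% among all genes. With scaling by totals alone or log2(FPKM + 1) 6 rose and 5 fell.

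Of 17 amino acid transporters 5 were higher and 6 lower, again not far from the shares among all genes. SLC7A5, the light chain of the main carrier of methionine and other large neutral amino acids, was at 1225, 1258, 1297 and 1268 CPM at 0 h and 1099, 1089, 1104 and 1077 CPM after recovery (1.16-fold lower). Its heavy chain SLC3A2 fell 1.17-fold. SLC43A2, a facilitative carrier of methionine, was at 26.1, 27.1, 28.4 and 25.5 CPM and then at 16, 17.0, 17.7 and 18.7 CPM, the largest fall of the list at 1.54-fold. The cationic carriers SLC7A1 and SLC7A6 and the small neutral carrier SLC38A2 fell 1.09- to 1.14-fold. SLC7A8, another light chain that pairs with SLC3A2, was at 3.78, 3.63, 3.18 and 3.83 CPM at 0 h and 7.21, 7.48, 6.70 and 7.48 CPM after recovery (2.00-fold higher). The glutamate carrier SLC1A3 was at 16.7, 20.0, 17.1 and 18.9 CPM and then at 35.7, 33.8, 31.6 and 33.3 CPM (1.85-fold higher). SLC1A1 rose 1.97-fold, the lysosomal arginine sensor SLC38A9 1.26-fold and the glutamine carrier SLC1A5 1.07-fold.

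**Figure D4:**
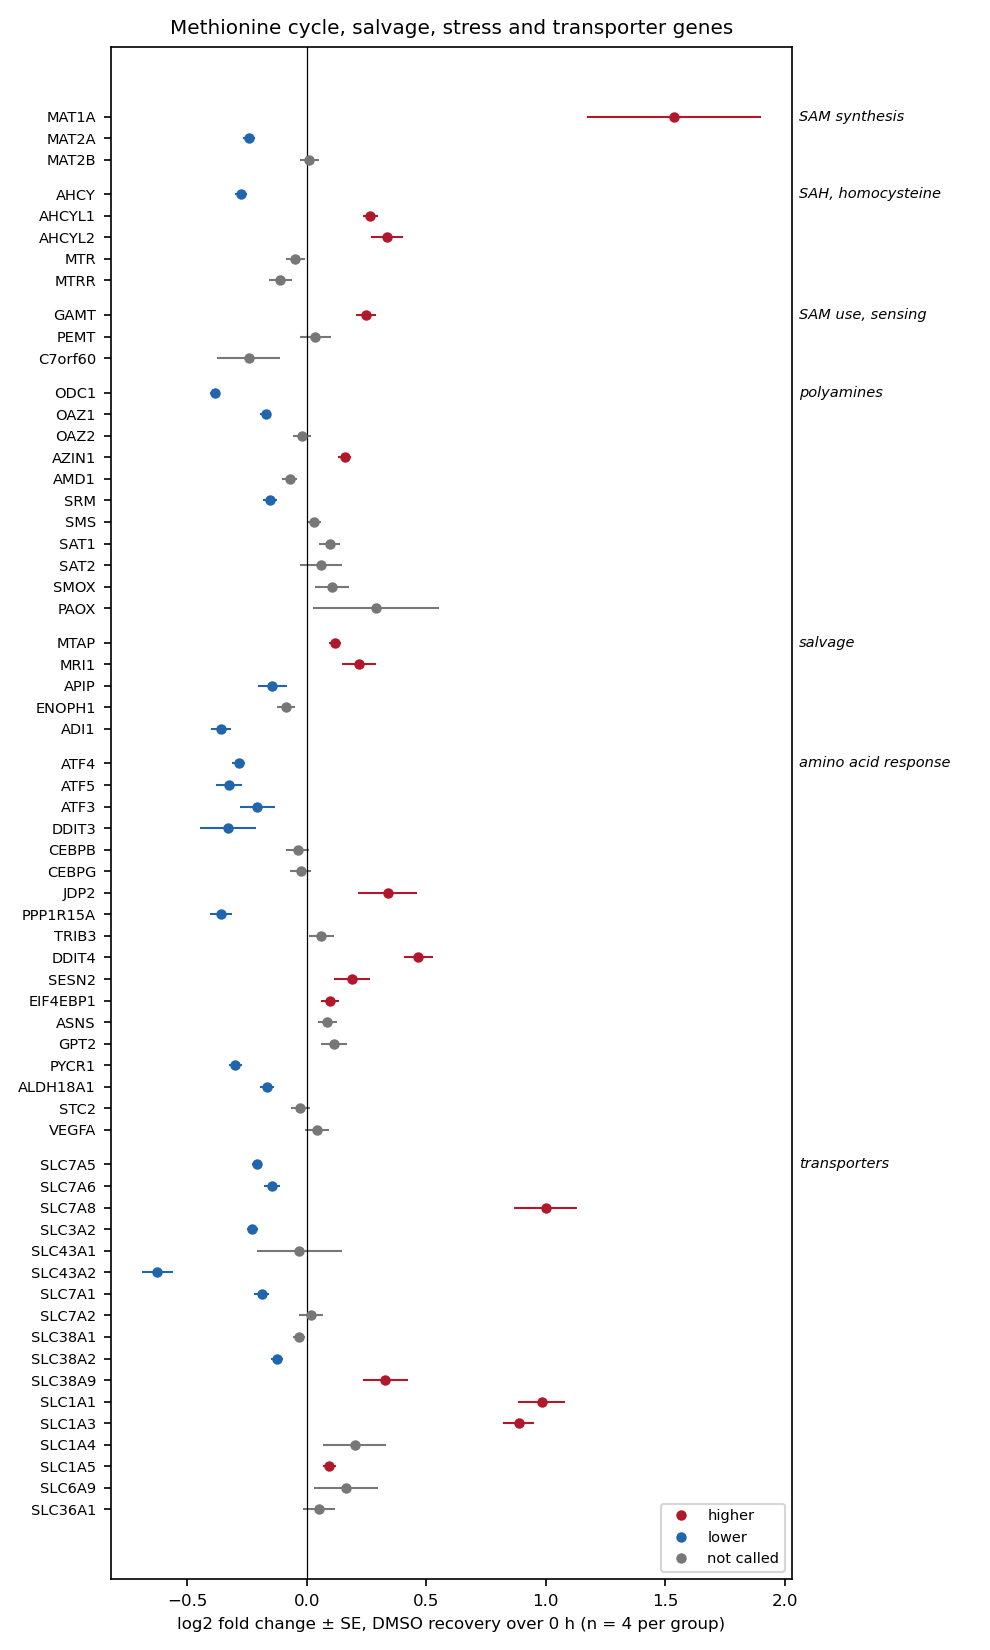
Log2 fold change with its SE (horizontal axis, DMSO recovery over 0 h, n = 4 per group) for genes of the methionine cycle, polyamines, salvage, the amino acid response and amino acid transport, red for called higher, blue for called lower and grey for not called. MAT1A lies furthest right at 1.54 with the widest bar, and SLC43A2 furthest left at -0.63.

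Aminoacyl-tRNA synthetases, which load tRNAs for translation, were mostly lower. Of 20 cytosolic synthetase genes 13 fell and none rose (median log2 fold change -0.14). With totals alone 10 fell and 1 rose, and on log2(FPKM + 1) 10 fell and 2 rose. Among all genes tested 22.7% fell and 22.6% rose, and in the class of highest level 47.3% and 17.0%. The counts for lists of abundant genes, here and below, are to be read beside these shares. YARS, for tyrosine, was at 235, 241, 251 and 234 CPM at 0 h and 197, 179, 197 and 192 CPM after recovery (1.26-fold lower). CARS, for cysteine, fell 1.28-fold, MARS, for methionine, 1.19-fold, and GARS, SARS and TARS 1.19- to 1.22-fold.

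Chaperones of the endoplasmic reticulum were lower as well. Of 25 genes for folding and degradation in this compartment 16 fell and none rose (median log2 fold change -0.12). HSP90B1, its HSP90, was at 1213, 1216, 1199.5 and 1199 CPM at 0 h and 877, 887, 880.1 and 889.8 CPM after recovery (1.37-fold lower, edgeR adjusted p = 2.66e-20). CALR, calreticulin, which folds glycoproteins, was at 1259.6, 1266, 1292 and 1330.0 CPM and then at 1131, 1079, 1084 and 1068 CPM (1.18-fold lower). HSPA5, the main chaperone BiP, was at 1064, 1104, 1082 and 1058 CPM and then at 1011, 1009.7, 1014 and 986 CPM. Its groups are apart, but the fall was 1.07-fold and was not called within the short-gap libraries, with totals alone or on log2(FPKM + 1). The co-chaperones MANF and DNAJB11 fell 1.30- and 1.25-fold, the isomerase PDIA4 1.14-fold and the calnexin gene CANX 1.11-fold.

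The endoplasmic reticulum stress element (CCAAT and CCACG with any 9 bases between them), looked for on both strands of the same windows, was present in 6 of 23 windows of this list (26.1%) and in 15 of all 10191 (0.147%). The 6 genes were HSP90B1, with 2 matches, CALR, HSPA5, CRELD2, CANX and XBP1. Of these 5 fell, and XBP1, a factor of the unfolded protein response, was not called at a log2 fold change of -0.026 ± 0.044 (SE). CRELD2, an isomerase of this compartment, was at 44.4, 45.1, 50.2 and 45.7 CPM at 0 h and 36.5, 35.0, 39.8 and 39.2 CPM after recovery (1.23-fold lower). Stretches of 4 windows, which with the other elements were picked for printing after their matches were seen, are shown with the element in capitals as it reads on the gene's strand. They lie at chr12:103930196-103930359 (plus strand), chr19:12938364-12938422 (plus), chr9:125241371-125241429 (minus) and chr22:49918534-49918592 (plus).
HSP90B1: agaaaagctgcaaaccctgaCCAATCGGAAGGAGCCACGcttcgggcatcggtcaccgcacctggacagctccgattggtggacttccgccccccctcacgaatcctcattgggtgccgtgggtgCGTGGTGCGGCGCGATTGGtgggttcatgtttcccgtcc
CALR: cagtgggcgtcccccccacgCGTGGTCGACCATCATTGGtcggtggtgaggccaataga
HSPA5: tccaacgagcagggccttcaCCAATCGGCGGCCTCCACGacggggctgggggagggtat
CRELD2: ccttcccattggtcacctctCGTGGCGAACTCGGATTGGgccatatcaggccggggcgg
The sequence shared by these genes goes with falls of different size, from 1.07-fold in HSPA5 to 1.37-fold in HSP90B1.

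The heat shock genes of the cytosol and mitochondria gave 10 falls and 3 rises among 16. HSPD1 and HSPE1, the mitochondrial chaperonins, fell 1.11- and 1.15-fold, HSPA8, the constitutive HSP70, 1.11-fold and HSP90AB1 1.09-fold. BAG3, which guides HSP70 clients to autophagy, rose 1.25-fold and HSPH1 1.09-fold. A heat shock element (GAA, TTC and GAA, each set apart from the next by any 2 bases) was present in 2 of 16 windows of the list, those of HSPA8 and DNAJA1, and in 0.314% of all windows.

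The machinery of ribosomes was lower nearly throughout. Of 33 small ribosomal subunit proteins 32 fell and 1 rose, and of 50 large ribosomal subunit proteins 45 fell and 2 rose, with median log2 fold changes of -0.22 and -0.18. RPSA was at 2089, 2002, 2008 and 2006 CPM at 0 h and 1605, 1529.6, 1582 and 1558 CPM after recovery (1.29-fold lower, edgeR adjusted p = 9.31e-18). RPS20 was at 900.4, 835, 831 and 865 CPM and then at 669.8, 623, 638 and 629 CPM (1.34-fold lower). In both the recovered libraries lay below every 0 h library, and RPLP2, an acidic protein of the stalk, fell 1.35-fold. RPL41, the smallest protein of the ribosome, was at 1426, 1367, 1332 and 1375 CPM at 0 h and 1596, 1509.7, 1546 and 1504 CPM after recovery, a 1.12-fold rise against its list. The paralogs RPS27L, a p53 target, and RPL22L1 rose 1.1- and 1.08-fold (RPS27L not called without DMSO replicate 1, edgeR adjusted p = 0.0520). These are short genes. With the length offset 25 of the small ribosomal subunit proteins and 32 of the large ribosomal subunit proteins fell, and 25 and 29 on log2(FPKM + 1).

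Ribosome biogenesis gave 28 falls among 31 genes and no rise (median log2 fold change -0.22), and 28 with the length offset. NOP56, of the particle that methylates ribosomal RNA, was at 463, 455, 449.9 and 464 CPM at 0 h and 379, 351, 350.5 and 359 CPM after recovery (1.27-fold lower). The assembly factors RRS1, NIP7, PES1 and TSR1 fell 1.36-, 1.27-, 1.24- and 1.23-fold. Of 26 translation factors 20 fell, among them EIF5A, EIF2S2 and EEF1D by 1.28-, 1.26- and 1.24-fold, while EIF4B and EIF3D rose 1.05- and 1.06-fold (EIF3D not called without 0 h replicate 4 or DMSO replicate 3, edgeR adjusted p = 0.0502 and 0.0531). Of 25 splicing factors 23 fell, HNRNPR most at 1.35-fold and SRSF2 by 1.19-fold, and HNRNPL rose 1.05-fold (not called without DMSO replicate 3, edgeR adjusted p = 0.0699). Of 32 proteasome genes 21 fell and none rose, led by PSMD8 at 1.28-fold.

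Of 76 mitochondrial ribosomal proteins 47 fell and none rose. MRPL12, which also binds the mitochondrial RNA polymerase, was at 305, 303, 297 and 305 CPM at 0 h and 252, 247, 254 and 248 CPM after recovery (1.21-fold lower), and MRPS7 fell 1.25-fold. Of 38 genes of respiratory complex I 25 fell and none rose. NDUFB8 was at 198, 182, 190.3 and 195 CPM and then at 149, 139.7, 138 and 133 CPM (1.37-fold lower). Of 39 genes of respiratory complexes II to V 30 fell and 1 rose, with ATP5E, COX6C and UQCRQ 1.37-, 1.33- and 1.30-fold lower and ATP5D 1.06-fold higher (not called without 0 h replicate 3 or 4 or DMSO replicate 3, edgeR adjusted p = 0.0879 to 0.124). With the length offset the falls numbered 35 for mitochondrial ribosomal proteins, 14 for respiratory complex I and 22 for respiratory complexes II to V, and within the short-gap libraries 19, 6 and 16.

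**Figure D5:**
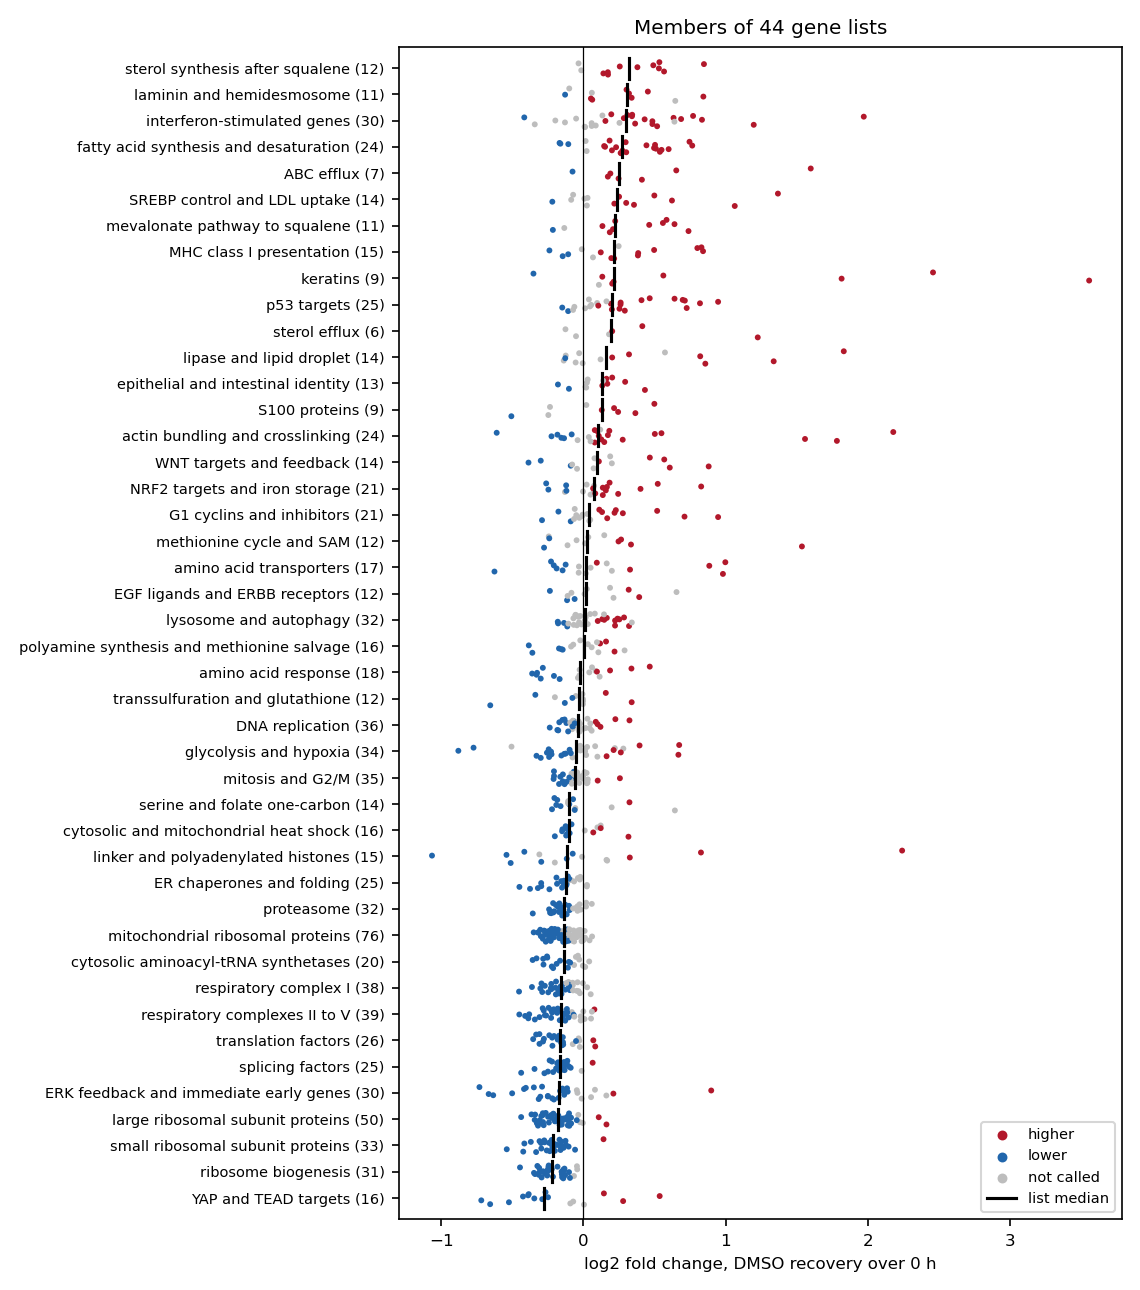
Log2 fold change (horizontal axis, DMSO recovery over 0 h) of each tested member of 44 gene lists, red for called higher, blue for called lower and grey for not called, with the list median as a black bar and the number of members in brackets. The lists are ordered by median, from YAP and TEAD targets at -0.28 to sterol synthesis after squalene at 0.32, and lists of the ribosome lie in a narrow band left of 0.

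Of 25 tested targets of p53 15 rose and 2 fell (median log2 fold change 0.20). CDKN1A, the CDK inhibitor p21, was at 114, 109, 108 and 106 CPM at 0 h and 216, 217, 205 and 205 CPM after recovery (1.93-fold higher, edgeR adjusted p = 9.91e-24). TP53INP1, a stress-induced p53 cofactor, was at 8.99, 9.77, 11.1 and 7.25 CPM and then at 18.1, 15.1, 15.7 and 16.7 CPM (1.77-fold higher). GDF15, a secreted stress cytokine, rose 1.64-fold, BTG2 1.62-fold, the death receptor FAS 1.56-fold and PERP, a desmosomal protein, 1.22-fold, while PLK2 and AEN fell 1.11- and 1.08-fold. Among 21 genes of G1 control 9 rose and 3 fell. The pocket protein gene RBL2 rose 1.64-fold, the CDK inhibitor CDKN2C 1.43-fold, CCND3 1.21-fold and E2F2 1.16-fold, and CDK4, RBL1 and CCND1 fell 1.22-, 1.13- and 1.06-fold.

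Genes of the cell cycle itself changed little in size. Of 36 DNA replication genes 12 fell and 5 rose, but with scaling by totals alone or log2(FPKM + 1) 6 fell and 8 rose, so the direction of the list depends on the scaling. GINS4 of the replicative helicase rose 1.17-fold, and MCM7, MCM5 and RFC2 fell 1.11-, 1.09- and 1.18-fold. Of 35 mitotic genes 13 fell and 2 rose, with 4 and 4 on log2(FPKM + 1). UBE2C, AURKB and KIF23 fell 1.16-, 1.15- and 1.15-fold and NEK2 rose 1.2-fold.

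Of 30 tested interferon-stimulated genes 17 rose and 1 fell (median log2 fold change 0.30), and 11 further genes of the list were too low to test. DTX3L, a ubiquitin ligase of antiviral defence, was at 16, 16.5, 17.4 and 16.6 CPM at 0 h and 27.3, 29.3, 29.9 and 27.1 CPM after recovery (1.71-fold). IFIT1, which binds viral RNA caps, was at 1.32, 1.73, 1.25 and 1.95 CPM and then at 3.37, 4.77, 2.96 and 3.35 CPM (2.29-fold). OAS3 and PARP14 rose 1.35- and 1.27-fold. ISG15, a ubiquitin-like protein that is joined to other proteins, went the other way, from 77.6, 74.1, 70.7 and 68.2 CPM to 54.8, 55.7, 56.0 and 51.9 CPM (1.33-fold lower, edgeR adjusted p = 9.81e-10), with no overlap. Of 15 genes of MHC class I presentation 9 rose and 3 fell. The transactivator NLRC5 rose 1.79-fold, the peptide loading genes TAPBP, TAP1 and TAP2 1.41-, 1.31- and 1.15-fold and the light chain B2M 1.16-fold, while HLA-E and PSMB10 fell 1.08- and 1.11-fold. HLA-E was not called without 0 h replicate 2 or DMSO replicate 3, edgeR adjusted p = 0.0569 and 0.0592, and PSMB10 was not called without 0 h replicate 1, 2, 3 or 4 or DMSO replicate 2, 3 or 4, edgeR adjusted p = 0.0507 to 0.0702.

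Of 21 NRF2 and iron genes 11 rose and 4 fell, and the ferritin chains had the smallest p among them. FTH1 was at 1217, 1203, 1218 and 1201 CPM at 0 h and 1758, 1734, 1748 and 1715 CPM after recovery (1.44-fold, edgeR adjusted p = 5.93e-23), and FTL at 825, 808, 818 and 783 CPM and then at 1079, 1041, 1079.9 and 1073 CPM (1.32-fold). Both chains of ferritin separated the groups. Of the redox genes TXNRD1 rose 1.12-fold, while TALDO1, PRDX1 and TXN fell 1.2-, 1.19- and 1.09-fold. With the length offset TXN was not called and had a log2 fold change of 0.0063. Of 7 ABC efflux genes 6 rose and 1 fell. ABCC3 led at 3.03-fold, followed by ABCG2, a urate and drug exporter, at 1.57-fold, ABCB1 at 1.33-fold and ABCC5, ABCC4 and ABCC2 at 1.19-, 1.14- and 1.13-fold. ABCG2 was not called within the long-gap libraries. ABCC1 fell 1.05-fold (not called without 0 h replicate 2 or 3 or DMSO replicate 2, 3 or 4, edgeR adjusted p = 0.0990 to 0.228). ABCB1 was not called without 0 h replicate 2, 3 or 4 or DMSO replicate 2 or 4, edgeR adjusted p = 0.0513 to 0.139, and ABCC2 was not called without 0 h replicate 1 or DMSO replicate 2 or 4, edgeR adjusted p = 0.0594 to 0.0748.

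Of 34 glycolysis and hypoxia genes 15 fell and 6 rose. Among all genes 22.7% fell and 22.6% rose, and in the class of highest level 47.3% fell and 17.0% rose. SLC2A1, the main glucose transporter, fell 1.26-fold beside SLC2A3, and LDHA, LDHB, TPI1 and PGAM1 fell 1.17- to 1.19-fold. ALDOC, ENO2 and PFKFB4, a bifunctional regulator of glycolysis, rose 1.59-, 1.32- and 1.60-fold. With scaling by totals alone the counts were 13 lower and 12 higher. Lysosome and autophagy genes gave 10 rises and 4 falls among 32 (median log2 fold change 0.014), where 22.6% of all genes rose and 22.7% fell. The cargo receptor SQSTM1 rose 1.22-fold, GABARAPL1 and MAP1LC3B, which coat autophagosomes, 1.25- and 1.18-fold, and the lysosomal PSAP 1.17-fold, whereas LAMP1 and ATG5 both fell 1.13-fold.

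Of the 9 keratins tested 7 rose and 1 fell. KRT81 and its close relative KRT86, at 0.180, 0.279, 0.207 and 0 CPM at 0 h and 1.16, 1.09, 0.670 and 1.02 CPM after recovery, rose most, and reads of the one may have been counted for the other. Of the simple epithelial keratins KRT80 rose 1.48-fold, KRT19 1.16-fold, KRT8 1.15-fold and KRT18 1.1-fold. KRT23 fell 1.28-fold (not called without 0 h replicate 2 or DMSO replicate 4, edgeR adjusted p = 0.0577 and 0.0793). The epithelial adhesion gene CDH1 rose 1.35-fold and the claudins CLDN4 and CLDN7 both 1.12-fold, while TJP1, of the tight junction, and EPCAM fell 1.13- and 1.07-fold. Of 11 laminin and hemidesmosome genes 7 rose and 1 fell, LAMA3 by 1.80-fold and ITGB4 by 1.37-fold, with ITGA6 1.09-fold lower. Of 24 actin genes 14 rose and 6 fell. ESPN and MYO1E rose 1.46- and 1.42-fold and TPM4 1.21-fold, while CNN2, TPM2 and EZR fell 1.17-, 1.13- and 1.1-fold.

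S100 genes showed opposite members. S100A6 was at 509, 483, 496 and 515 CPM at 0 h and 741, 709, 708 and 671 CPM after recovery (1.41-fold higher). S100A10, the partner of ANXA2, was at 214, 208, 219 and 219.5 CPM and then at 156, 147, 151 and 152 CPM (1.42-fold lower). In total 5 of 9 rose and 1 fell.

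Linker histones also parted. Against the rise of HIST1H1C, H1F0, the linker histone of resting cells, was at 305, 302, 307 and 327 CPM at 0 h and 224, 226, 215 and 206 CPM after recovery (1.43-fold lower). H1FX was at 139, 143, 147 and 139 CPM and then at 97.1, 99.0, 98.3 and 96.7 CPM (1.45-fold lower). HIST1H1E was at 2.82, 2.79, 1.38 and 2.30 CPM and then at 1.21, 1.39, 0.558 and 1.31 CPM, where 0 h replicate 3 lay just below DMSO replicate 2 (2.09-fold lower, edgeR adjusted p = 0.00118). It was not called within the short-gap libraries or without the libraries with COL1A2. HIST1H2BD and HIST1H2BK rose 1.77- and 1.25-fold, and the variants H2AFX, H2AFZ and H3F3B fell 1.33-, 1.23- and 1.08-fold. Most histone transcripts lack a poly(A) tail, and how RNA was selected for these libraries is not given in the sources used here.

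Of 30 ERK feedback and immediate early genes 21 fell and 2 rose (median log2 fold change -0.17). EGR1, an early growth response factor, was at 45.2, 47.7, 54.2 and 54.6 CPM at 0 h and 33.5, 28.7, 36.2 and 31.1 CPM after recovery (1.55-fold lower). DUSP5, a nuclear ERK phosphatase, fell 1.42-fold, IER3 1.32-fold, SPRY4 1.27-fold, FOSL1 1.24-fold and MYC 1.23-fold. SPRY1 and SPRED1, inhibitors of the same route, rose 1.87- and 1.16-fold (SPRY1 not called without 0 h replicate 2 or DMSO replicate 3, edgeR adjusted p = 0.0687 and 0.0810). Of the EGF ligands AREG and EREG fell 1.08- and 1.04-fold (EREG not called without 0 h replicate 1, 2 or 4 or DMSO replicate 1 or 2, edgeR adjusted p = 0.0736 to 0.225) and TGFA rose 1.25-fold. The receptor EGFR rose 1.31-fold and its inhibitor ERRFI1 fell 1.18-fold. With 2 of 12 higher and 3 lower the list had no settled direction (3 and 1 with totals alone). The shares among all genes were 22.6% and 22.7%.

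YAP and TEAD targets had a median log2 fold change of -0.28, the lowest but for those of the blood and of the fibroblast and endothelium markers, with 10 of 16 lower and 3 higher. CYR61, a matrix-associated signalling protein, was at 58.9, 58.5, 61.1 and 60.9 CPM at 0 h and 35.1, 34.7, 39.7 and 35.9 CPM after recovery (1.64-fold lower, edgeR adjusted p = 1.00e-14). All 4 recovered libraries lay well below 0 h. NUAK2, a kinase of actin tension, fell 1.58-fold, GADD45B 1.44-fold, AMOTL2 1.34-fold, the receptor kinase AXL 1.27-fold and tissue factor F3 1.2-fold. TGFB2, WWTR1 and ASAP1 rose 1.45-, 1.21- and 1.11-fold, WWTR1 being a close relative of YAP. TGFB2 was not called without 0 h replicate 3 or DMSO replicate 4, edgeR adjusted p = 0.0567 and 0.0628. Of 14 WNT targets 5 rose and 3 fell, and 2 and 3 within the short-gap libraries. Among all genes 22.6% rose and 22.7% fell. CD44, EPHB2 and EPHB3 rose 1.38-, 1.52- and 1.48-fold and the secreted inhibitor DKK1 and BMP4 fell 1.31- and 1.23-fold.

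Markers of other cell types were low beside the epithelial ones and not even between the groups. Whether their reads came from other cells was not tested. The blood markers HBA1, HBA2, HBB and PTPRC summed to 1.71 to 5.43 CPM of the library total at 0 h and to 1.12 to 1.81 after recovery. HBA1 and HBA2 were called lower (HBA2 not called without 0 h replicate 1 or 2, edgeR adjusted p = 0.0532 and 0.102), and PTPRC was at 0 in the 0 h libraries and in DMSO replicate 1. The 5 fibroblast markers summed to 19.2 to 38.7 at 0 h and 25.5 to 34.9 after recovery, of which COL1A1 made up 18.9 to 29.2 and 25.3 to 31.6. COL1A1 rose 1.17-fold (not called without 0 h replicate 1 or 4 or DMSO replicate 1, edgeR adjusted p = 0.150 to 0.181). COL1A2 and COL3A1 were called lower, at 2.64, 1.73, 6.78 and 0 CPM at 0 h and 1.84, 0, 0 and 0.0486 CPM after recovery for COL1A2. COL1A2 was not called without 0 h replicate 3, edgeR adjusted p = 0.0522, and COL3A1 was not called without 0 h replicate 3, edgeR adjusted p = 0.0545. Endothelial markers summed to under 1, with CDH5 at 0 in every library. The part of all these markers in the results was not tested. Without the 4 libraries with COL1A2 above 1 CPM 9 of 12 genes after squalene rose, 14 of 24 of fatty acid synthesis rose, 31 of 33 small ribosomal subunit proteins fell and 11 of 25 p53 targets rose. Of the methionine cycle and SAM list 1 gene rose and 2 fell there.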

How the data were processed

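RNA was sequenced from HCT116 cells, and groups were taken from the treatment labels. Per the labels' protocols, Trizol was used for total RNA and a company made the libraries. The submitters' processing notes name RSEM 1.2.4, Bowtie and the build hg18. Strand, for the kit and for counting, is not given in the sources used here, and values of overlapping or antisense genes are uncertain. The deposited files hold expected counts (estimates that need not be whole) and FPKM (scaled to gene length and library) for each gene, beside its length and effective length, per the file headers. Of the expected counts above 0, 53.3% to 57.6% per library were whole (within 0.005).

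Expected counts were rounded, filtered with filterByExpr and tested with edgeR 4.0.16 in R 4.3.3 (quasi-likelihood F-test, TMM factors, 8 libraries, two-sided, Benjamini-Hochberg over 12531 genes). Standard errors (SE) of log2 fold changes were derived from the test, as the absolute log2 fold change over the square root of its F statistic. TMM factors averaged 0.981 at 0 h and 1.02 after recovery. Deposited FPKM carry no TMM factor, so small changes in FPKM can differ in sign from fitted ones. Within groups, the 12 pairs of libraries differed beyond sampling noise (chi-square over its degrees of freedom 2.04 to 3.03), and no library was treated as a duplicate.

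The comparison, the 46 gene lists (1083 genes, 986 tested) and the rule for named genes were chosen with earlier results of these data known. The rule takes the 15 largest rises and falls among calls where the mean log2 CPM reached 1 or more and groups did not overlap, leaving out small, unnamed and open-reading-frame genes. It adds the 10 largest gains and losses in FPKM and members of the lists: any member of the lipid, methionine, polyamine, amino acid, keratin, histone, EGF and efflux lists. Of each other list it takes up to 6 of smallest p and up to 3 against the majority. CRELD2, XBP1 and DNAJA1 were named for their promoter match. Some genes picked by the rule are not reported here.

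Alternatives were RLE factors, library totals, no filter, a stricter filter (4 libraries at 1 CPM or more), the replicate block, all 12 libraries, gap class, gene length, limma-voom 3.58.1, DESeq2 1.42.0, limma on log2(FPKM + 1) and each library left out. Added after the data were seen were each gap class alone and the fit without libraries with COL1A2 above 1 CPM. On simulated counts with 12459 genes tested, 50 genes were changed at each fold size. Of those changed 1.2-, 1.5-, 2- and 4-fold, 64%, 90%, 98% and 100% were recovered, and 15 of 191 calls were false (7.85%). In the data 45.3% of genes were called, far more than were changed there, so these shares do not carry over.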

Additional observations from a re-analysis of the deposited data

Results flagged for a closer look

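Single libraries that stood apart from the other 3 of their group were looked for in the 62 genes given library by library and in the measures of depth, 132 groups of 4 in all. A library was listed where its gap to the next made up a larger part of the group's range than Dixon's critical value for 4 samples (at a level of 0.05) allows, which chance gives in about 1 of 20 groups, and 6 were found. HIST1H1C was lowest in DMSO replicate 3 at 22.4 CPM, where the other recovered libraries were at 24.9 to 25.4 CPM. SLC2A3 was lowest in 0 h replicate 3 at 31.5 CPM, against 33.1 to 33.2 CPM. SREBF2 was highest in DMSO replicate 1 at 185 CPM, against 179 to 180.1 CPM. AHCY was highest in DMSO replicate 3 at 337 CPM, against 325 to 326 CPM. HSPA5 was lowest in DMSO replicate 4 at 986 CPM, against 1009.7 to 1014 CPM. RPSA was highest in 0 h replicate 1 at 2089 CPM, against 2002 to 2008 CPM. The groups of all 6 genes remained apart with these libraries included.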

How the results depend on the processing

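The totals of rises and falls moved by less than 1.5 times over the alternatives with TMM or RLE factors and all 8 libraries. The short-gap contrast, fitted on all 8 libraries, is the exception and is given below. Leaving out each library in turn gave 2565 to 2692 rises and 2589 to 2767 falls, with 492 to 538 rises and 61 to 77 falls past 1.5-fold. Scaling by totals gave 1862 falls. On log2(FPKM + 1) limma gave 1654 falls, with 152 rises and 11 falls past 1.5-fold, a scale that understates changes of low genes. Without the filter 113 genes fell past 1.5-fold. Within the short-gap libraries, with 2 at 0 h and 1 after recovery, 1374 genes rose, 1424 fell and 47 fell past 1.5-fold. Without the libraries with COL1A2 above 1 CPM, which leaves 4, 1571 rose and 1729 fell. DESeq2 called 2512 higher and 2639 lower. A block for the replicate number gave 2846 and 2879. Same-numbered libraries did not deviate together (r -0.044 to -0.0018 over 4 pairs), and no library correlated best with its own number for both of a pair. This cannot exclude that same-numbered libraries were handled together, and the main fit did not pair them.

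Lists changed their leading direction in few settings, and the cause was not tested. DNA replication had 6 falls, the amino acid response 5 and polyamine synthesis and methionine salvage 4 both with totals alone and on log2(FPKM + 1), each then below its rises. EGF ligands and ERBB receptors had 1 fall in these settings and 2 with the stricter filter, the length offset and within the long-gap libraries. WNT targets had 2 rises within the short-gap libraries, and the methionine cycle and SAM list 1 rise without the libraries with COL1A2. Markers of fibroblast and endothelium had 0 falls without 0 h replicate 3, within the short-gap libraries and without the libraries with COL1A2.

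Of the 342 genes named and tested 317 were called, and 231 of these in every setting. The sign turned, with no call there, for ABCC2 (-0.029) and APIP (0.0056) within the short-gap libraries, for DDIT3 (0.14) and HBA2 (6.07) without the libraries with COL1A2, and for TXN (0.0063) with the length offset. TMSL3 (-4.61 without 0 h replicate 1) turned to 0.97 without 0 h replicate 2, 0.78 within the short-gap libraries and 1.21 without the libraries with COL1A2. In the simulation at these depths and with 4 libraries a group, 64% of genes changed 1.2-fold were found. Far fewer genes were changed there than were called in the data, so that share does not carry over.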

Other observations

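Several genes with the smallest p belong to none of the lists, and they were singled out after their values were seen. ALDH1A3, which makes retinoic acid, had the smallest p of all genes tested and rose 2.00-fold, from 316, 311, 325 and 317 CPM at 0 h to 641, 622, 633 and 636 CPM after recovery. CRABP2, which carries retinoic acid to its receptor, rose 1.53-fold from 116 ± 1.22 to 178 ± 5.10 CPM (mean ± SD, n = 4). ID1, a relative of ID3, rose 1.62-fold from 117 ± 5.14 to 191 ± 7.64 CPM, while ID2, of the same family, was not called (log2 fold change -0.0090 ± 0.044, SE). LTBP3, which binds latent TGF-beta, rose 1.54-fold, HSPG2, the basement membrane proteoglycan perlecan, 2.15-fold, VGF, a secreted neuropeptide precursor, 1.83-fold, GDA, guanine deaminase, 2.05-fold and REEP3 1.82-fold. HMGN2, a nucleosome-binding protein, fell 1.47-fold from 687 ± 9.21 to 466 ± 12.7 CPM, and SSFA2 fell 1.34-fold.

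Some of the lowest fitted fold changes come from genes with near-identical copies and uneven libraries. TMSL3, a copy of a thymosin gene, was at 0.300, 57.1, 0.622 and 0.348 CPM at 0 h and 0.842, 0.422, 1.39 and 0.632 CPM after recovery, so that 0 h replicate 2 alone gave the fitted log2 fold change of -4.20 ± 0.87 (SE). EIF3CL, a copy of EIF3C, was at 4.92, 0, 4.84 and 4.95 CPM and then at 0, 1.33, 0 and 1.02 CPM, with 0 h replicate 2 at 0.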
